A study of Mus musculus with 7 samples.

Results

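Macrophages in LBR-null and WT mouse kidneys were described through 10 marker genes, which were taken by their symbols from the 24328 symbols in the deposited values: Adgre1, Csf1r, Cd68, Cd163, Mrc1, Cx3cr1, Lyz2, Mertk, Siglec1 and Msr1. All 10 were present and all 10 passed the filter on low values, together with 17283 genes in all. The LBR-null kidneys came from 3 C57BL/6J mice homozygous for the ic-J loss-of-function allele of Lbr (Lbric-J/ic-J), numbered 4001, 4002 and 4007, and the WT kidney came from 1 Lbr+/+ mouse of that strain, 4009, all at 4 weeks of age. Per the study, WT animals were littermates. Lbr encodes the lamin B receptor, a protein of the inner nuclear membrane that holds heterochromatin at the nuclear edge and also acts in cholesterol synthesis, and the allele was carried by every cell of the LBR-null animals rather than by macrophages alone. Poly(A) RNA of whole kidney was sequenced in 7 libraries, 2 for each mouse except 4002, which had 1. The study asked how loss of this chromatin tether changes gene expression, and here that question is put to the macrophage genes. Because the WT group was 1 mouse, the tests below rest on the spread among the LBR-null mice. These were 3 mice, or fewer where a mouse was left out. A fit of single libraries, given at the end, is the exception. Differences between the genotypes cannot be told apart from differences between mouse 4009 and other WT mice.

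The libraries held 20694016 to 26333284 reads. The labels do not state sex, but Xist, the RNA that silences an X chromosome in females, stood at 5785 normalized counts in mouse 4001, 65.3 in 4002, 9940 in 4007 and 35.5 in the WT mouse, and the Y-linked gene Ddx3y at 141, 1516, 44.3 and 1284, so that 4002 was the LBR-null mouse closest to WT in both, and 4001 and 4007 held far more Xist. Mouse 4001 held less Xist and more Ddx3y than 4007, and whether its RNA was mixed with that of another animal was not tested. Its libraries also differed more from each other than other pairs did, with a chi-square per degree of freedom of 16.0 against 2.84 in mouse 4007 and 2.59 in WT. Lbr itself stood at 322, 340 and 471 normalized counts in the LBR-null mice and 398 in WT. The allele was not visible in the amount of this RNA, so it gave no check of the genotype labels.

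Macrophages are phagocytes that settle in the kidney before birth and are later joined by cells derived from blood monocytes. They depend on signals through the receptor CSF1R, engulf dying cells and debris, and take up modified proteins and lipids through scavenger receptors. The 10 genes cover these roles. Csf1r and Cx3cr1 encode receptors for a growth factor and a chemokine, Mertk a receptor for dying cells, Cd163, Mrc1 and Msr1 scavenger and lectin receptors, Siglec1 a sialic acid-binding receptor, Adgre1 the surface antigen F4/80, Cd68 a lysosomal glycoprotein, and Lyz2 a lysozyme. They are markers rather than proof of a cell type, since some are also made elsewhere, Lyz2 in neutrophils for example, Mrc1 in some endothelial cells and Cx3cr1 in some lymphocytes.

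The study sorted genes by whether their promoters hold a CpG island, a stretch rich in the dinucleotide CG. RefSeq promoter sequences (GRCm38.p6) were matched by symbol for 6 of the 10 genes, Cd163, Lyz2, Mrc1, Cx3cr1, Cd68 and Mertk. Over the 250 bases before the start, the number of CG dinucleotides was 0 in Cd163, 1 in Lyz2, 3 in Mrc1, 4 in Cx3cr1, 4 in Cd68 and 7 in Mertk, and the median over 32851 promoters was 6. None of the 6 reached both a GC content of at least 50% and an observed-to-expected CG ratio above 0.6, which 31.0% of all these promoters reached. This is not the rule of the study, which searched on both sides of the start and also required islands found by affinity purification. The study's own class of each gene was not used here, so these counts do not sort the 6 genes into its classes. CG reads the same on both strands, so 1 strand was counted. The windows printed are those of the gene with the highest value relative to WT, the gene with the lowest and the gene nearest to WT, with each CG in capitals, 5′ to 3′ on the strand of the gene. Cd163 is read from chr6:124304401-124304650 on the plus strand, Cx3cr1 from chr9:120068297-120068546 on the minus strand and Mertk from chr2:128698665-128698914 on the plus strand.
Cd163: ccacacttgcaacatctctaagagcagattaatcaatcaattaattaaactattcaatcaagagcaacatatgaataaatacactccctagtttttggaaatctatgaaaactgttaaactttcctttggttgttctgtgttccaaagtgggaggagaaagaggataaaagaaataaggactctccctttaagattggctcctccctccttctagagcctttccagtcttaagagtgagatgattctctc
Cx3cr1: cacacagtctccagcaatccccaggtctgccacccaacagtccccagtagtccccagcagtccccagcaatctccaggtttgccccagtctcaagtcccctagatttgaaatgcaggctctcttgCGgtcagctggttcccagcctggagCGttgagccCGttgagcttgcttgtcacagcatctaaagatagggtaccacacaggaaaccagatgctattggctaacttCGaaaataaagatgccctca
Mertk: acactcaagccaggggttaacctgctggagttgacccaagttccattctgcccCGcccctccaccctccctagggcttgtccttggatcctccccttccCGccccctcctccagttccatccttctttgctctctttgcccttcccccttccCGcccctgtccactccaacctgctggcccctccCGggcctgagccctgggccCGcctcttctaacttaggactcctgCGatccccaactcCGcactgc
The Cd163 window is AT-rich with no capital letters at all, the Cx3cr1 window has its CGs nearer the start, and the Mertk window has CGs along most of its length. These letters describe the sequence only, and promoter methylation was not measured in these libraries.

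Relative to the WT mouse, the macrophage genes did not shift as a block. The genes Adgre1, Csf1r, Cd68, Cx3cr1 and Siglec1 lay below WT in every comparison of an LBR-null with a WT library (5 of 10 genes), Cd163 and Lyz2 lay above both (2 of 10), and Mrc1, Mertk and Msr1 overlapped WT (3 of 10). Over all genes tested, 25.7% lay below and 25.5% above in this way. The 17283 genes tested include 1293 that averaged at least 5 normalized counts in LBR-null alone and 113 that did so in WT alone. All 10 marker genes averaged at least 5 in both genotypes. Of the 15877 genes that did so, 4358 lay below and 3470 above. Whether the shares of the 10 genes differ from these was not tested. Averages differed by at least 2-fold for Cd163, which was higher, and Cx3cr1, which was lower, where 14.5% of all genes were 2-fold higher and 7.04% were 2-fold lower. The median log2 fold change of the 10 genes was −0.34, with −0.36 in mouse 4001, −0.21 in 4002 and −0.47 in 4007, and the median of all genes tested was 0.01. With limma and Benjamini-Hochberg adjustment over all genes tested, none of the 10 genes was called (limits of 2-fold and 0.05 in adjusted p), and the share of all genes that passed was 0%. At an unadjusted limma p under 0.05 there was 1 of the 10 genes higher, Cd163, and 0 lower, beside 10.7% and 8.05% of all genes. Run on the reads recovered from the deposited values, edgeR called 0.162% of genes and 0 of the 10, and DESeq2 called 6.72% of genes and 1 of the 10, again Cd163. In a whole kidney, fewer cells of a type and less RNA per cell cannot be told apart.

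**Figure D1:**
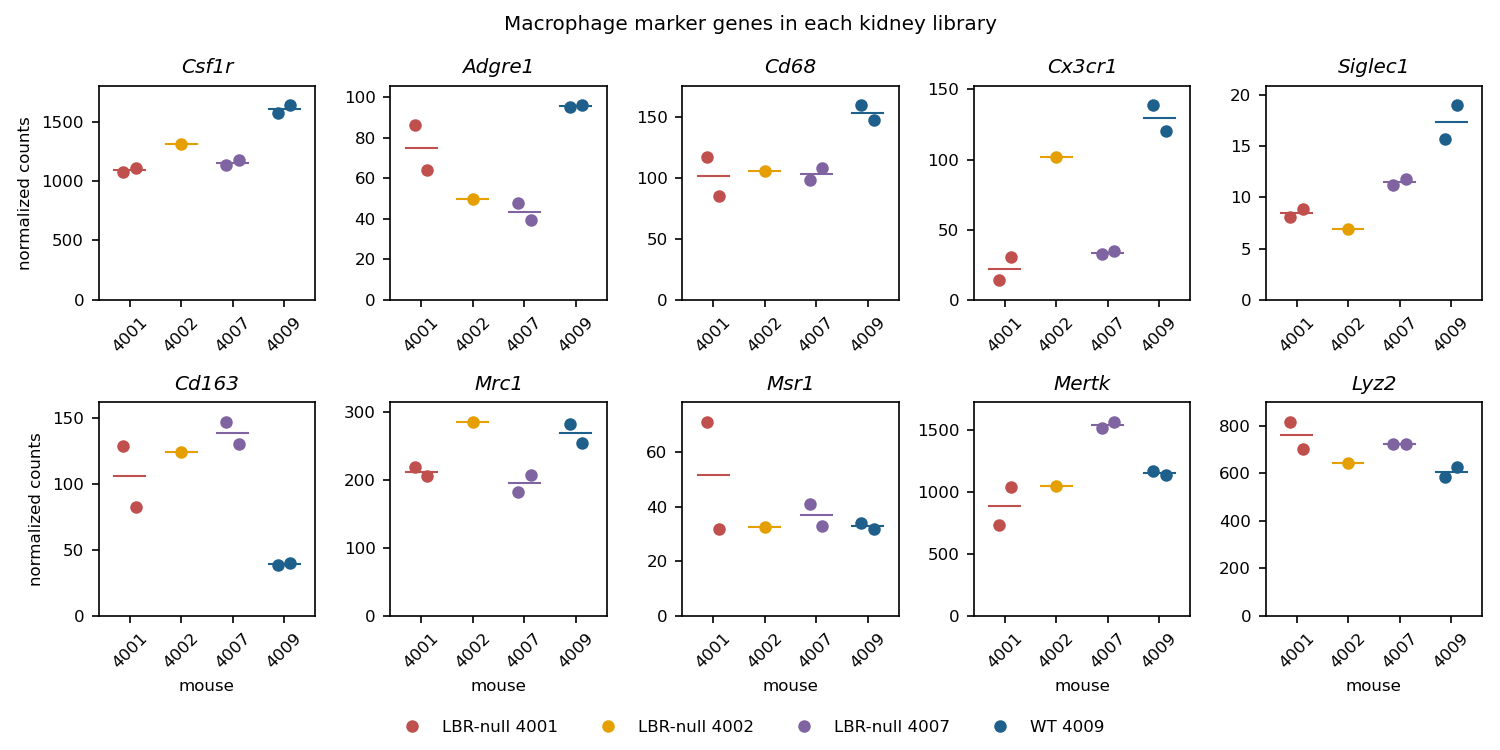
Normalized counts (vertical axes, from 0) of the 10 macrophage marker genes by mouse (horizontal axes), with 1 point per library and a line at the mean of each mouse. In the panel of Cd163 the 5 LBR-null libraries stand at 82.5 to 147 and the WT libraries at 38.6 and 39.8, while for Cx3cr1 mouse 4002 stands at 101, apart from the other LBR-null libraries at 13.8 to 34.6.

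Csf1r encodes the receptor tyrosine kinase that macrophages need to survive. The gene lies at chr18:61265226-61291803 on the plus strand of mm9, the build used by the study. It stood at 1082 and 1115 normalized counts in the libraries of mouse 4001, 1315 in mouse 4002, 1136 and 1179 in mouse 4007, and 1578 and 1640 in the WT mouse. All LBR-null libraries were below WT, and the highest was that of 4002. The LBR-null mean was 1190 ± 112 (SD, n = 3) against 1609 in WT, a log2 fold change of −0.44 (SE 0.24) with an adjusted p of 0.380 from limma. Exons of Csf1r overlap those of Hmgxb3 on the opposite strand, and since the counting is not stated to use strand, part of these reads may belong to that gene.

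Both known ligands of CSF1R were measured. Csf1 RNA stood at 161 and 187 normalized counts in mouse 4001, 228 in 4002, 174 and 158 in 4007, and 490 and 501 in WT. Every LBR-null library thus held at most 228, with no overlap with WT. The mean of 189 ± 33.7 (SD, n = 3) against 495 gave a log2 fold change of −1.40 (SE 0.32), with an adjusted p of 0.114 from limma, 0.113 from edgeR and 0.0061 from DESeq2. Il34, the other ligand, overlapped WT, with 180 to 255 normalized counts in LBR-null libraries and 191 and 212 in WT.

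Cx3cr1 encodes the receptor of fractalkine, which holds mononuclear phagocytes in place in several tissues, and it lies at chr9:119957811-119977400 on the minus strand of mm9. Its libraries held 13.8 and 30.2 normalized counts in mouse 4001, 101 in mouse 4002, 32.6 and 34.6 in mouse 4007, and 139 and 120 in WT. The LBR-null mice fell into a pair with little of this RNA and a single animal, 4002, close to WT. Averaged, the level was 52.3 ± 42.9 (SD, n = 3) against 129 in WT, 2.47-fold higher in WT. On the log2 scale the difference was −1.59 (SE 0.82), with an adjusted p of 0.356 from limma. Without mouse 4002 the log2 fold change was −2.21, and without mouse 4001 it was −1.13. Mouse 4002 was also the LBR-null mouse with Xist and Ddx3y levels near those of WT, and the part of that in the result was not tested.

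Cx3cl1, which encodes fractalkine itself, a ligand made by epithelial and endothelial cells, was lower in each LBR-null library than in WT. Values were 456 and 453 normalized counts in mouse 4001, 825 in 4002, 696 and 653 in 4007, and 2309 and 2319 in WT. Here too 4002 was the highest of the LBR-null mice. The mean was 651 ± 186 (SD, n = 3) against 2314, a log2 fold change of −1.87 (SE 0.36) with an adjusted p of 0.101 from limma, 0.0952 from edgeR and 5.9e-04 from DESeq2.

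Mertk encodes a receptor tyrosine kinase with which macrophages recognise and clear dying cells, and it lies at chr2:128524692-128628630 on the plus strand of mm9. It showed 736 and 1037 normalized counts in mouse 4001, 1047 in mouse 4002, 1518 and 1567 in mouse 4007, and 1168 and 1134 in WT. Mouse 4007 was above WT and the other LBR-null mice were below it. The means of 1159 ± 342 (SD, n = 3) and 1151 were nearly equal, with a log2 fold change of −0.03 (SE 0.35) and an adjusted p of 0.975 from limma, and the sign of this difference turned in several alternatives. MERTK does not bind dying cells directly but through the bridging proteins GAS6 and protein S. Gas6 stood at 4823 to 6142 normalized counts in the LBR-null libraries and 8373 and 8455 in WT, without overlap, with a log2 fold change of −0.59 (SE 0.27) and an adjusted p of 0.309 from limma. Pros1, encoding protein S, stood at 1254 to 1682 in LBR-null and 1288 and 1351 in WT. Of the 5 ligand genes, Csf1, Cx3cl1 and Gas6 lay below WT in every LBR-null library (3 of 5), none lay above, and their median log2 fold change was −0.59.

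**Figure D2:**
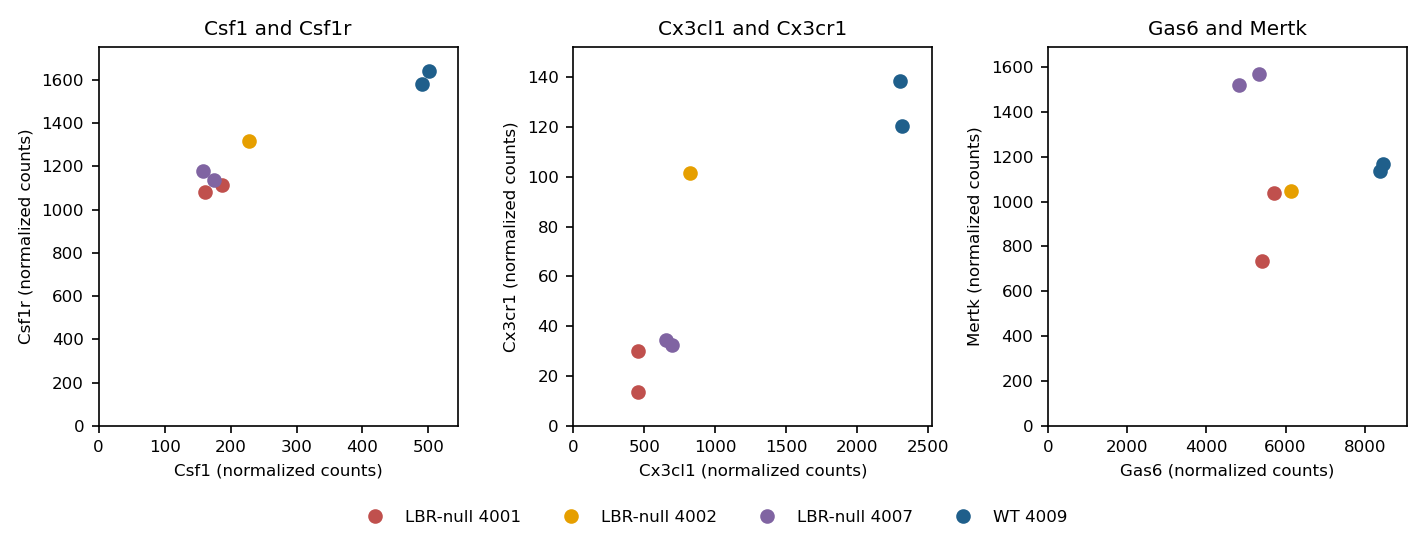
Normalized counts of 3 ligand genes (horizontal axes) and their receptor genes (vertical axes), both from 0, with 1 point per library coloured by mouse. Csf1 and Cx3cl1 are at most 228 and 825 in LBR-null libraries and at least 490 and 2309 in WT, while Mertk of mouse 4007, at 1518 and 1567, lies above WT at a lower Gas6 level.

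Cd163 encodes the scavenger receptor for complexes of haemoglobin and haptoglobin. It lies at chr6:124254669-124280545 on the plus strand of mm9. It was the highest of the 10 genes relative to WT, with 129 and 82.5 normalized counts in mouse 4001, 124 in mouse 4002, 147 and 130 in mouse 4007, and 38.6 and 39.8 in WT. All 3 LBR-null mice were on the same side and even the lowest library was well above WT. The mean of 123 ± 16.6 (SD, n = 3) against 39.2 was 3.13-fold higher, with a log2 fold change of 1.61 (SE 0.36). Its adjusted p was 0.114 from limma and 0.134 from edgeR, neither of which passed, and 0.0097 from DESeq2, which did. From limma the adjusted p was 0.0285 without mouse 4001, 0.103 without 4002 and 0.407 without 4007. The WT value rests on 49 and 44 reads.

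Mrc1, the mannose receptor CD206, at chr2:14151041-14253684 on the plus strand, stood at 218 and 205 normalized counts in mouse 4001, 285 in 4002, 183 and 207 in 4007, and 282 and 254 in WT. Mouse 4002 was level with WT and the other LBR-null mice were below. The mean was 231 ± 48.3 (SD, n = 3) against 268, a log2 fold change of −0.24 (SE 0.33) with an adjusted p of 0.748 from limma. The Mrc1 log2 fold change was −0.40 without mouse 4002 and −0.12 without mouse 4007. Msr1, the class A scavenger receptor for modified lipoproteins, at chr8:40667054-40728032 on the minus strand, stood at 71.2 and 31.9 in mouse 4001, 32.7 in 4002, 41.0 and 32.8 in 4007, and 33.9 and 31.7 in WT. All but the first library of mouse 4001 lay near WT. The mean was 40.4 ± 9.92 (SD, n = 3) against 32.8, a log2 fold change of 0.27 (SE 0.46) with an adjusted p of 0.799 from limma. The Msr1 log2 fold change was 0.04 without the first library of mouse 4001, 0.08 without that mouse and 0.40 without mouse 4002. In a list of further scavenger receptors, 9 genes averaged at least 5 normalized counts in both genotypes, of which 4 lay below WT, 0 above and 5 overlapped, with a median log2 fold change of −0.22. Another, Cd5l, passed the filter through LBR-null alone, and a gene that passes in this way had to differ, so counts and medians of lists are given without such genes from here on. Over all 15877 genes left by that rule, 4358 lay below WT in every LBR-null library and 3470 above, and the median was −0.04. The extremes of the list were Cd5l, a secreted macrophage protein, at 12.6 to 24.0 normalized counts in LBR-null and 2.71 and 6.30 in WT, and Stab2, an endothelial hyaluronan receptor, at 25.3 to 40.8 against 59.1 and 101. The difference between Cd163 and the other receptors of the 10 genes was not tested.

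Adgre1, at chr17:57498109-57622952 on the plus strand and named Emr1 in that annotation, encodes F4/80, the antigen by which mouse macrophages are most often stained. It showed 86.1 and 63.9 normalized counts in mouse 4001, 49.9 in mouse 4002, 47.5 and 39.2 in mouse 4007, and 95.3 and 95.9 in WT. All LBR-null libraries were below WT, with the first library of 4001 nearest to it. The mean was 56.1 ± 16.7 (SD, n = 3) against 95.6, a log2 fold change of −0.80 (SE 0.45) with an adjusted p of 0.399 from limma. Cd68, at chr11:69477715-69479655 on the minus strand, stood at 117 and 85.2 in mouse 4001, 106 in 4002, 97.8 and 108 in 4007, and 159 and 147 in WT. It varied least among the 3 LBR-null mice, at 103 ± 2.34 (SD, n = 3) against 153, although the libraries of 4001 differed. Its log2 fold change was −0.57 (SE 0.33) with an adjusted p of 0.404 from limma.

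Siglec1, or sialoadhesin, at chr2:130894956-130912501 on the minus strand, was the scarcest of the 10 genes. It showed 8.04 and 8.87 normalized counts in mouse 4001, 6.88 in 4002, 11.2 and 11.8 in 4007, and 15.7 and 19.0 in WT. These values rest on 7 to 13 reads in the LBR-null libraries and on 20 and 21 in WT, so that counting error alone is large. The mean was 8.95 ± 2.36 (SD, n = 3) against 17.4, a log2 fold change of −0.91 (SE 0.57) with an adjusted p of 0.437 from limma.

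Lyz2, lysozyme of macrophages and neutrophils, at chr10:116714390-116719377 on the minus strand, was slightly higher in LBR-null kidneys. It stood at 818 and 700 normalized counts in mouse 4001, 645 in 4002, 724 and 723 in 4007, and 585 and 628 in WT. The LBR-null libraries all lay above the WT pair, the one of 4002 by the least. The mean of 709 ± 58.3 (SD, n = 3) against 606 gave a log2 fold change of 0.22 (SE 0.24), with an adjusted p of 0.674 from limma. Its near-identical neighbour Lyz1 was at 2.71 to 8.66 in all libraries, and reads could have been split between the pair. Of the neutrophil genes, 4 averaged at least 5 in both genotypes, of which 2 lay above WT in every LBR-null library, 2 overlapped and none lay below, and 6 more passed the filter through LBR-null alone. The sum of that whole list was 478 to 2748 normalized counts in LBR-null libraries against 103 and 116 in WT. It includes the 6 genes that passed through LBR-null alone, which had to differ. Retnlg, Mpo and Camp were each at 0 in 1 of the WT libraries, and Ly6g was not used here. S100a8, a subunit of calprotectin, stood at 160 to 924 in LBR-null against 44.1 and 56.1. The part of neutrophil RNA in the Lyz2 values was not tested.

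**Figure D3:**
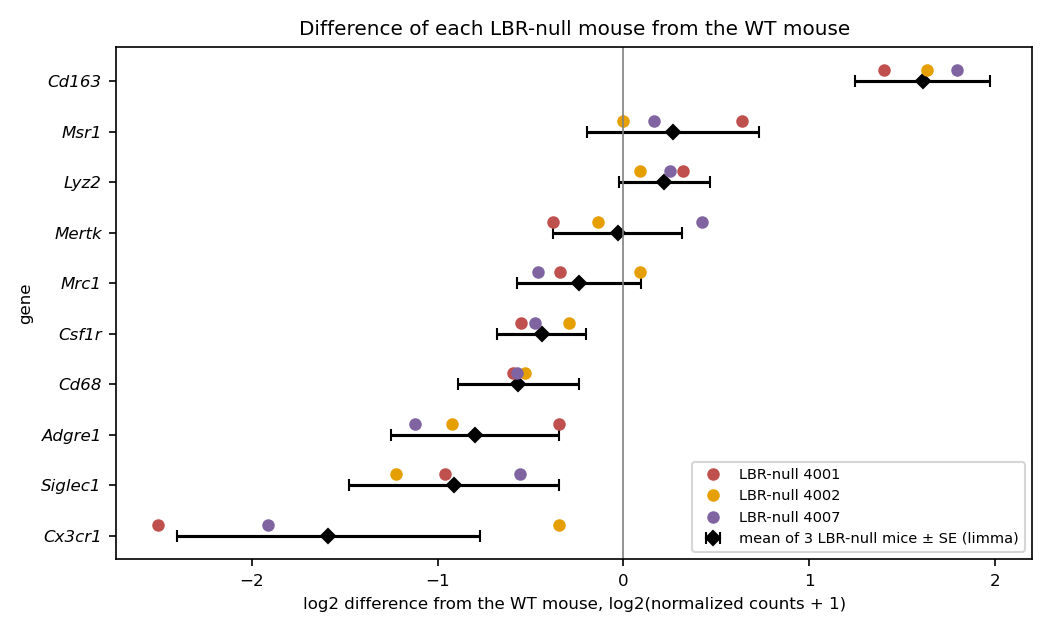
Log2 difference of each LBR-null mouse from the WT mouse (horizontal axis, log2 of normalized counts + 1) for each macrophage marker gene (vertical axis), with coloured points for mice and black diamonds with bars for the limma estimate ± SE over 3 mice. Cd163 is at 1.61 and Cx3cr1 at −1.59, where mouse 4002 stands apart from the other mice, and the Mertk points lie on both sides of 0.

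The order of the genes by level per kilobase of exon (normalized counts per kb) differed between the genotypes for 4 of the 10 genes. In WT it ran Lyz2 (462), Csf1r (308), Mertk (265), Cd68 (122), Mrc1 (45.1), Cx3cr1 (34.7), Adgre1 (29.5), Cd163 (8.73), Msr1 (8.16) and Siglec1 (2.43). The libraries of neighbouring genes in this order did not overlap, but both libraries came from 1 mouse. In LBR-null kidneys the mean of Mertk, at 267 ± 78.8 per kb (SD, n = 3), passed that of Csf1r, at 228 ± 21.4. Cd163, at 27.3 ± 3.70 per kb (SD, n = 3), took the place of Cx3cr1, at 14.0 ± 11.5, as the sixth, and Cx3cr1 became the eighth behind Adgre1 at 17.3 ± 5.15. Cd163 thus went from the level of Msr1 to between Mrc1 and Adgre1. Among the LBR-null mice, Mertk (204 to 356) and Csf1r (210 to 251) overlapped in level per kb, and the range of Cx3cr1 (5.89 to 27.2) spanned those of Adgre1 (13.4 to 23.1) and Msr1 (8.14 to 12.8) and reached into that of Cd163 (23.5 to 30.9). The order of those neighbours was therefore not larger than the spread between mice.

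Reads were also set against those of Csf1r within each library. Cd163 stood at 7.40 to 12.95 reads per 100 Csf1r reads in LBR-null and 2.43 and 2.45 in WT. Lyz2 stood at 49.1 to 75.6 against 37.1 and 38.3, and Msr1 at 2.49 to 6.58 against 1.93 and 2.15, so that all 3 were above WT in every LBR-null library. Over all genes tested, 51.9% lay above WT in this way and 8.7% below, since Csf1r itself was below WT in every LBR-null library, so 3 of 9 genes above is a smaller share than among all genes. Per Csf1r read, Adgre1, Cd68, Cx3cr1, Siglec1, Mrc1 and Mertk overlapped WT. Cd163 reads per Adgre1 read were 1.49 and 1.29 in mouse 4001, 2.48 in 4002, 3.10 and 3.33 in 4007, and 0.405 and 0.415 in WT. The WT kidney thus held fewer Cd163 than Adgre1 reads, and each LBR-null library held more.

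Libraries of 1 mouse agreed to a different degree. The median absolute log2 difference of the 10 genes between the libraries of a mouse was 0.44 in 4001, 0.110 in 4007 and 0.0978 in WT, and over all genes tested it was 0.217, 0.108 and 0.0903. In mouse 4001 the genes that differed most between the libraries were Msr1 (1.13), Cx3cr1 (1.08) and Cd163 (0.63), so that the average of this mouse is the least certain for these 3 genes.

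Of the transcription factors that direct macrophage identity, Spi1 (PU.1) averaged 90.3 ± 19.2 normalized counts (SD, n = 3) in LBR-null and 128 in WT, and Irf8 averaged 328 ± 52.6 (SD, n = 3) and 450. Both lay below WT in every LBR-null library, with adjusted p of 0.528 and 0.448 from limma. Of 10 such factors, 6 lay below WT and 3 above, with a median log2 fold change of −0.49. The lowest were Tfec, at 131 to 183 against 383 and 400, and the lipid sensor Nr1h3, at 305 to 453 against 764 and 824. The highest were Cebpb, a factor of inflammatory and acute-phase responses, at 1010 to 2184 against 681 and 735, and Mitf, at 764 to 851 against 450 and 481. Both stood well above Spi1 in level, and in whole-kidney RNA the cells that held the RNA of these factors were not told apart.

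The list of other genes that macrophages express also lay mostly on the side of Adgre1 and Csf1r. Of these, 11 of 20 lay below WT in every LBR-null library and 1 of 20 above, with a median log2 fold change of −0.69. Aif1, the microglia and macrophage protein IBA1, stood at 9.31 to 28.7 normalized counts against 92.1 and 107, and the Fc receptor Fcgr4 at 19.5 to 24.9 against 87.7 and 92.1. At the other end were the endotoxin co-receptor Cd14, at 221 to 392 against 167 and 169, and Trem2, a lipid receptor, at 19.5 to 47.0 against 9.45 and 20.8. By limma none of these passed, while DESeq2 gave Aif1 an adjusted p of 0.015 and Fcgr4 one of 0.0097.

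Genes of tissue-resident macrophages went both ways. Of 10 genes, 3 lay above WT, 2 below and 5 overlapped, with a median log2 fold change of 0.20, and 4 more passed the filter through LBR-null alone, Cd5l and Vsig4 among them. Cd5l is given above, and Vsig4, a complement receptor, was at 16.1 and 22.2 normalized counts in mouse 4001 but 0.911 to 4.30 in other LBR-null libraries and 0.787 and 1.81 in WT. Cbr2 was the lowest, at 128 to 200 against 359 and 377. The efferocytosis list held 5 below and 2 above of 14, with a median of −0.03. There, the cholesterol exporter Abca1 stood at 2520 to 3679 against 926 and 1008, with an adjusted p of 0.091 from limma and 8.5e-05 from DESeq2, Timd4, a phosphatidylserine receptor, at 11.2 to 34.6 against 5.43 and 10.2, and Lrp1, an endocytic receptor, at 1554 to 2226 against 2815 and 2881.

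**Figure D4:**
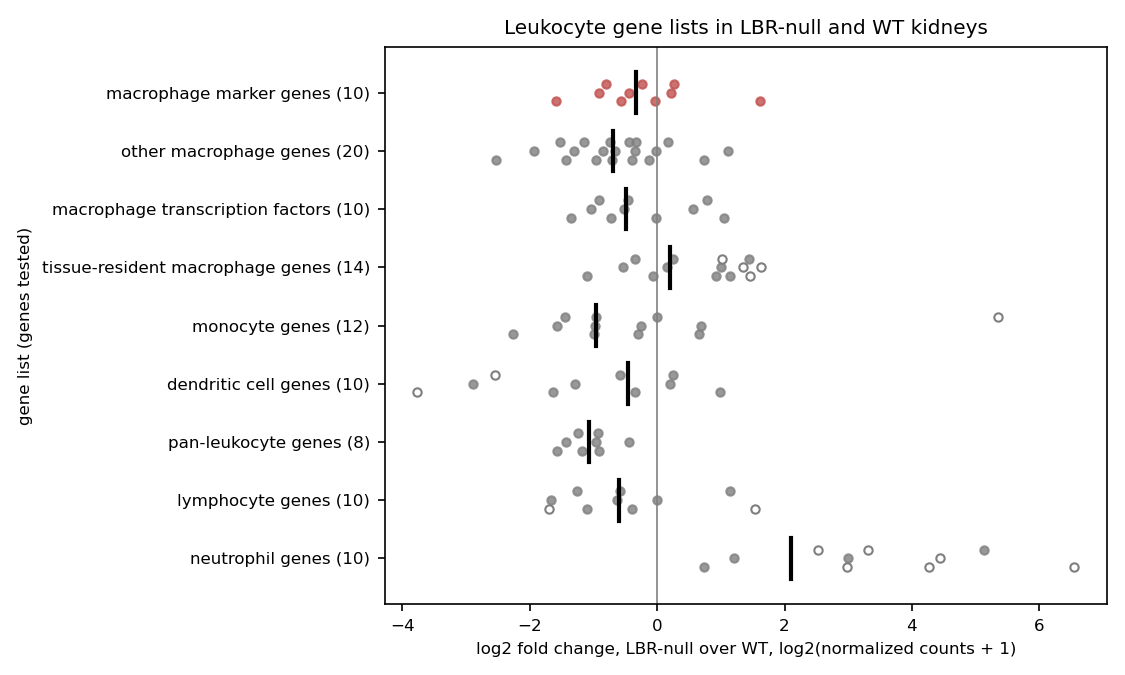
Log2 fold change of LBR-null over WT (horizontal axis, log2 of normalized counts + 1) for every tested gene of 9 lists (vertical axis, number of genes tested in brackets), with the macrophage marker genes in red, open points for genes that averaged at least 5 normalized counts in 1 genotype alone, and a black bar at the median of the filled points. The median is −0.34 for the marker genes, −1.07 for pan-leukocyte genes, −0.69 for other macrophage genes and 0.20 for tissue-resident macrophage genes.

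The lists of monocyte and dendritic cell genes had medians below 0. Of 11 monocyte genes 6 lay below WT and 0 above, with a median log2 fold change of −0.97. The chemokine receptor Ccr2, which brings monocytes out of the bone marrow, stood at 22.4 to 49.7 normalized counts against 92.3 and 130, and the matrix protein gene Fn1, which stromal cells also express, at 556 to 1072 against 3543 and 3628. Chil3 (Ym1), which passed the filter through LBR-null alone, was at 32.7 to 201 against 0 and 1.81, and F10 overlapped WT. Of 8 dendritic cell genes 4 lay below and 1 above, with a median of −0.46, and 2 more passed through WT alone, Cd209a among them. Cd209a stood at 1.72 to 14.9 against 53.4 and 63.0, and the integrin Itgax (CD11c) at 5.47 to 13.3 against 58.8 and 88.2, while Flt3, a growth factor receptor, stood at 34.4 to 57.7 against 20.8 and 22.8 and Zbtb46 overlapped WT.

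Of 7 genes of inflammatory macrophages 1 lay below WT and none above, with a median log2 fold change of −0.34. That 1 was Nos2, inducible nitric oxide synthase, at 7.29 to 15.1 normalized counts against 58.8 and 68.5, and Cd86, a T cell co-stimulator, stood at 40.8 to 125 against 40.9 and 47.9. Ccl2 overlapped WT, as did Il12b, which passed the filter through LBR-null alone. Of 6 genes of alternative activation 4 lay below and 2 above, with a median of −0.74, and 3 more passed through LBR-null alone and 1 through WT alone. The highest of the whole list were Chil3 and the cytokine Il10, the latter at 16.1 to 27.5 against 0.905 and 2.36. Both passed through LBR-null alone and so had to differ. The lowest were the chemokine Ccl22, which passed through WT alone, and Retnla. Ccl22 held 1 read in all 5 LBR-null libraries against 20.8 and 25.2 normalized counts in WT. Retnla stood at 58.6 and 50.6 in mouse 4001, near WT at 63.0 and 59.7, and at 2.58 to 4.66 in the other LBR-null libraries.

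The list of pan-leukocyte genes lay lower throughout. All 8 of the 8 pan-leukocyte genes lay below WT in every LBR-null library, as did 4358 of the 15877 genes that averaged at least 5 in both genotypes. The median log2 fold change of the 8 was −1.07, and their sum was 1009 to 1213 normalized counts against 2371 and 2455. Ptprc, encoding CD45, stood at 182 ± 31.6 (SD, n = 3) against 247, with a log2 fold change of −0.45 (SE 0.34) and an adjusted p of 0.517 from limma. By staining for CD45, the study reported infiltration of leukocytes in LBR-null kidneys relative to controls. Stained sections and RNA of whole kidney are unlike measures, and how these results relate was not tested. Cd52, at 37.3 to 86.1 against 154 and 169, and Laptm5, at 121 to 153 against 368 and 387, were the lowest. Of 8 lymphocyte genes 3 lay below and 1 above, with a median of −0.60. Outside leukocytes, all 6 of the 6 proliferation genes lay below WT, with a median of −2.77, and 5 of 6 proximal tubule genes did, with a median of −1.63. Of 7 genes of other nephron segments 2 lay below and 1 above, with a median of −0.16, and of 8 endothelial and stromal genes 4 lay below and none above, with a median of −0.37. Of 4 tested adipocyte and adrenal genes 3 lay below and 1 above, with a median of −3.27, and that list summed to 207 to 252 normalized counts in LBR-null libraries against 537 and 555 in WT. The part of these differences in the macrophage values was not tested.

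Over the 7 libraries, the genes outside the list whose log2 levels followed the mean of the 10 macrophage genes most closely were Scamp4 (Pearson r = 0.997), E130309D02Rik (r = 0.994), Mbd3 (r = 0.993), Rabl6 (r = 0.992) and Keap1 (r = 0.991), among 13058 genes. Scamp4 stood at 595 and 501 normalized counts in mouse 4001, 778 in 4002, 689 and 640 in 4007, and 985 and 998 in WT. These r describe 7 points from 4 mice, in which libraries of a mouse are not independent and the WT pair lies at 1 end, and they were not tested.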

How the data were processed

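Poly(A) RNA of kidneys from 3 LBR-null mice and 1 WT mouse was sequenced in 7 libraries. The authors deposited, for each library, gene read counts divided by a DESeq2 size factor, a signal in normalized counts. Per the labels, STAR 2.6.0, DESeq2 1.25.1 and mm9 were used. The counting program and its strand setting are not given in the sources used here. Every deposited value was a whole number of reads within 0.01 read, with 1 read worth 0.787 to 1.15 normalized counts, so reads were recovered. Libraries were averaged within a mouse, genes with a mean of at least 5 were kept, and LBR-null was compared with WT on log2(value + 1) in limma 3.58.1 (R 4.3.3, eBayes with trend), so fold changes of low genes are understated. Genes were called at 2-fold and an adjusted p of 0.05, and the steps were tested on simulated data. edgeR 4.0.16 and DESeq2 1.42.0 were run on reads summed per mouse as alternatives, beside other pseudocounts, filters and scalings and leaving out mice or libraries. Library numbers were not used to pair mice. A single value of 3 mice against 1 cannot go below an exact one-sided permutation p of 0.25. The marker genes and gene lists were chosen with earlier results of these data known. All 10 marker genes are named, with the ligands, Spi1, Irf8, Ptprc, up to 2 of the highest and 2 of the lowest genes of a list relative to WT (mean of at least 5), and the 5 genes of most similar pattern (mean of at least 50). S100a8, Lyz1, Xist, Ddx3y, Lbr and the neutrophil genes at 0 were added after their values were seen.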

Additional observations from a re-analysis of the deposited data

Results flagged for a closer look

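For 53 genes the 5 LBR-null values were searched for an outlier by Dixon's 95% limit, and 4 genes had one, where chance gives about 1 in 20 genes. These libraries come from 3 mice and are not independent. Cx3cr1 stood at 101 normalized counts in mouse 4002 and at 13.8 to 34.6 in the other LBR-null libraries. For Msr1 the outlier was the first 4001 library with 71.2, while the others, including the second from that mouse, held 31.9 to 41.0. In that same library Cd209a stood at 14.9, against 1.72 to 4.44 elsewhere in LBR-null, and Ccl22 at 1.15, which is 1 read, against 0 elsewhere. With 0 in all other libraries any read would be flagged, so the rate of 1 in 20 does not cover Ccl22.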

How the results depend on the processing

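In all, 9 of the 10 macrophage genes kept the direction of their difference in every one of the 16 alternatives that gave them a value, and the exception was Mertk. Siglec1 had no value under a filter on a mean of at least 20. The log2 fold change of Mertk turned from −0.03 to 0.0007 in DESeq2, 0.0123 with the replicate block and 0.0452 without the first library of mouse 4001, the last chosen after seeing the data, and ranged from −0.26 to 0.1427 when 1 mouse or WT library was left out (0.1427 without mouse 4001, 0.0228 without 4002). The number of the 10 genes called was 0 in limma, 1 in DESeq2 (Cd163) and 0 to 1 when 1 mouse or WT library was left out, the 1 being Cd163 without mouse 4001. The adjusted p of Cd163 ranged from 0.0097 to 0.407 over the alternatives. Over all genes tested, 0 were called in limma, 28 in edgeR, 1117 in DESeq2, 1313 with the replicate block, and 0 to 1163 when 1 mouse or WT library was left out (1163 without mouse 4001, 625 without 4002, 1 without the first WT library). The replicate block used only the mice with 2 libraries, so mouse 4002 was left out. It fitted the libraries singly with a term for library number, allowing for likeness within a mouse, so the WT pair added to its spread. The library numbers pair no animals, and the replicate block changed no call on the 10 genes. The median log2 fold change of the 10 genes ranged from −0.456 to −0.284, and that of the 9 genes left by the filter of 20 was −0.236. The number of the 10 genes lying on 1 side of WT was 7 to 8. With 1 WT mouse, no alternative measures the spread among WT kidneys. Siglec1, at 7 to 21 reads, is limited by depth.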
